A study of Rattus norvegicus with 6 samples.

Results

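The genes examined here encode colony-stimulating factors and the receptors for this family of growth factors. They are the ligands Csf1 and Il34 and the receptor genes Csf1r, Csf2ra, Csf2rb and Csf3r, and they were picked by gene symbol from the annotated gene table, where they make up 6 of 30957 listed genes. RNA was sequenced from the lumbar spinal cord of Wistar rats 14 days after cancer cells had been placed in a tibia. BCP rats (bone cancer pain) carried living Walker 256 cells, a rat mammary carcinoma line, in the marrow cavity of the left tibia, whereas sham-operated rats had received Walker 256 cells killed by heat, so that both groups underwent the operation and were exposed to material of the tumour cells. The study used adult females, reported no drug apart from anesthesia and altered no gene. It took the lumbar enlargement from the side of the inoculated leg with the meninges removed. Each group comprised 3 libraries of ribosome-depleted total RNA, 1 from each sample. The labels number the samples but do not state that each came from a separate rat, so the p-values measure the spread between these samples.

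CSF1 and IL34 are unrelated in sequence yet share the receptor CSF1R, a class III receptor tyrosine kinase on which microglia and tissue macrophages depend for survival and division. The receptor of CSF2, known as GM-CSF, pairs a ligand-specific alpha chain encoded by Csf2ra with the common beta chain encoded by Csf2rb, which also transmits the signals of IL3 and IL5. CSF3R is the receptor of CSF3, known as G-CSF, and is best known for its role in neutrophil production. In the nervous system CSF1R marks microglia and macrophages, IL34 is made largely by neurons, and CSF1 comes from glia and, after injury, from neurons.

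All 4 receptor genes were up-regulated more than 2-fold in BCP rats, Csf1 rose by less than 2-fold, and Il34 did not pass the test. The increase was 11.1-fold for Csf2rb, 6.66-fold for Csf2ra, 3.16-fold for Csf3r, 2.70-fold for Csf1r and 1.47-fold for Csf1. All 6 genes passed the filter on low counts and were tested. The thresholds of an adjusted p under 0.05 and a change of more than 2-fold called 4 of the 6 as higher and 0 as lower in BCP rats, against 6.35% and 0.107% of the 14908 tested genes (edgeR, Benjamini-Hochberg adjustment over all tested genes). DESeq2 also called 0 of the 6 as lower, and 0 of the 6 were lower at an unadjusted p under 0.05. By adjusted p alone 5 of the 6 were higher, against 15.8% of the tested genes. The libraries of the groups did not overlap for 5 of the 6 genes, as was so for 41.4% of the tested genes. The median log2 fold change (log2FC, BCP over sham) was 1.55 over the 6 genes and -0.01 over all tested genes. In RNA of a whole tissue, more cells of a type and more RNA per cell cannot be told apart.

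**Figure D1:**
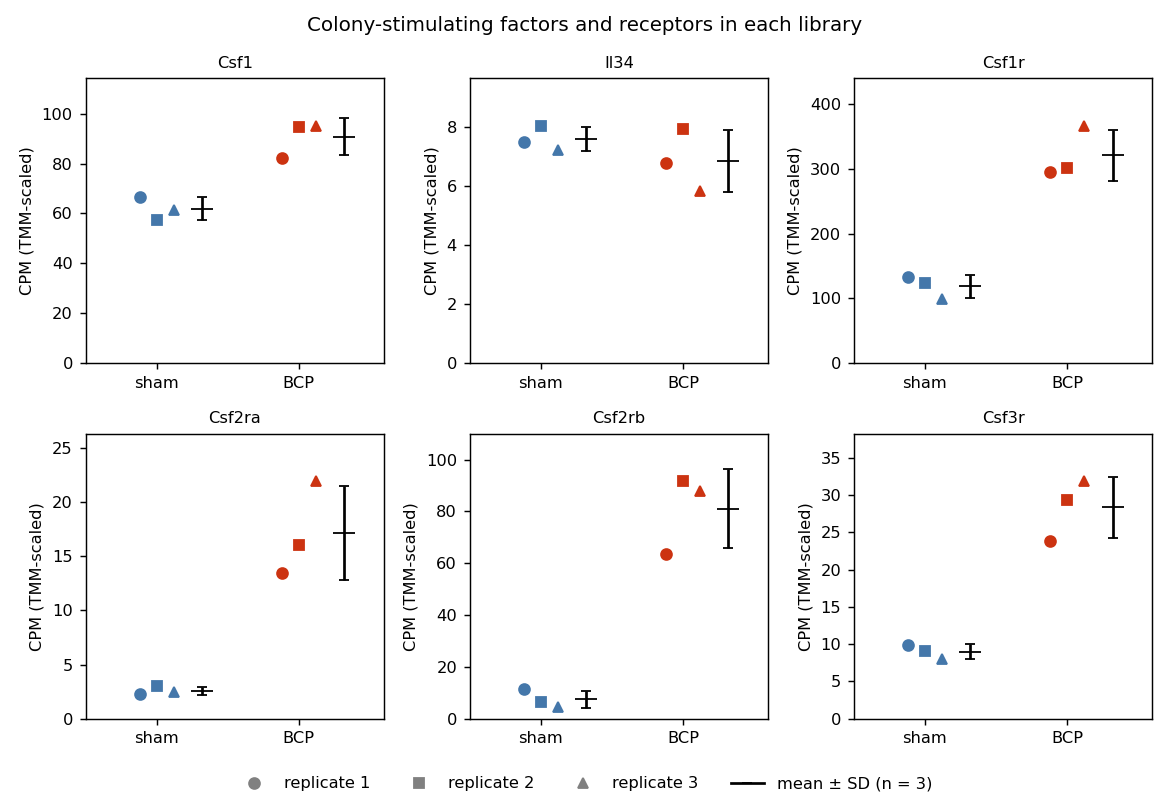
CPM (the count as a share of the library's total, scaled by TMM factors) of each of the 6 genes in the 3 sham and 3 BCP libraries, with points for libraries and bars for the mean ± SD. The BCP libraries lie above every sham library in all panels but that of Il34, where the groups overlap.

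Among the receptor genes, promoter sequences were at hand for Csf1r, Csf2ra and Csf3r. They are printed because these 3 genes rose in the same samples and because the purine box bound by PU.1, the myeloid transcription factor encoded by Spi1, can be looked for in them. Each covers 250 bases before and 50 bases after the start of the gene in RefSeq (GRCr8), read 5′ to 3′ on the strand of the gene. Capitals mark GAGGAA or its reverse complement TTCCTC. The Csf1r sequence lies at chr18:56834129-56834428 on the plus strand, that of Csf2ra at chr14:118068-118367 on the minus strand, and that of Csf3r at chr5:143582970-143583269 on the plus strand.
Csf1r: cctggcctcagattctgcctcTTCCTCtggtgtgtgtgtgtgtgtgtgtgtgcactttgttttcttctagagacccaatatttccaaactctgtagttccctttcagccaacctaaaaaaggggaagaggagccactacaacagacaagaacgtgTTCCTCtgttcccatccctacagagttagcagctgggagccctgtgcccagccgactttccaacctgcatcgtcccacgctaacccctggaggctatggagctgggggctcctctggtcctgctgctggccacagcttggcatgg
Csf2ra: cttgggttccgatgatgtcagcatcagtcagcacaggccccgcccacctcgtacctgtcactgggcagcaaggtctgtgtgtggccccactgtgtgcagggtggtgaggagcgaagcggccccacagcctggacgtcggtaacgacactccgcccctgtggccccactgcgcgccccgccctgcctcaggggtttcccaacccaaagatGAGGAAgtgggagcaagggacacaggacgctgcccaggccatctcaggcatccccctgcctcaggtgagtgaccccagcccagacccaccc
Csf3r: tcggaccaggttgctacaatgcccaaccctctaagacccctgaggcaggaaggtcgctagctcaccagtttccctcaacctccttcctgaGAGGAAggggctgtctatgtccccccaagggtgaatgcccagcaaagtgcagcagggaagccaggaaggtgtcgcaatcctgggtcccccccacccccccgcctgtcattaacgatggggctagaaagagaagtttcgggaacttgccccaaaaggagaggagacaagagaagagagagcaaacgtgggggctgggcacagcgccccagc

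The GAGGAA letters, searched on both strands, occurred at 2 places in the Csf1r promoter, both on the minus strand and 229 and 95 bases before the start. The Csf2ra promoter held 1 match at 41 bases before the start, where the letters ran on to the longer form GAGGAAGT, which contains the shorter one. The Csf3r promoter held 1 match at 160 bases before the start. Over all 33469 promoters of the same length, 27.6% held GAGGAA and 2.42% held GAGGAAGT, so the shorter match was common. The RUNX letters TGTGGT and the C/EBP letters TTGCNNAA, found in 17.3% and 10.6% of all promoters, had no match in these 3 windows. A match describes letters only, and nothing was measured on binding here.

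Csf1, the ligand whose gene lies at chr2:210522375-210550560 (ENSRNOG00000018659, Rnor_6.0), had 66.5, 57.4 and 61.6 CPM, that is, counts scaled to a common library total, in sham libraries 1, 2 and 3. In BCP libraries 1, 2 and 3 it had 82.1, 94.8 and 95.1 CPM. The lowest BCP library was above the highest sham library. The log2FC was 0.55 (SE 0.070, 95% confidence interval 0.41 to 0.70), with an adjusted p of 5.10e-06 in edgeR, and the whole interval lay below the 2-fold threshold. Csf1 was covered by 823 to 1328 counts per library, so this modest change rests on well-sampled values.

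Il34, the second ligand of CSF1R (ENSRNOG00000017602, chr19:40855433-40904121), had 7.47, 8.02 and 7.22 CPM in the sham libraries. The BCP libraries had 6.76, 7.92 and 5.83 CPM. BCP library 2 lay within the sham range and the other 2 lay below it, so the groups overlapped. The log2FC was -0.14 (SE 0.17, adjusted p = 0.574 in edgeR), and its 95% confidence interval of -0.49 to 0.20 corresponds to ratios from 0.712 to 1.15. A rise of the size seen for Csf1 lies outside this interval, whereas a fall to 0.712 of the sham level does not.

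Csf1r, which encodes the shared receptor of these ligands (ENSRNOG00000018414, chr18:56414488-56458300), had 133, 124 and 99.0 CPM in the sham libraries. In the BCP libraries it had 296, 301 and 366 CPM. Each BCP library held more than 2 times the CPM of each sham library. The log2FC was 1.44 (SE 0.16, 95% confidence interval 1.02 to 1.85, adjusted p = 0.00330 in edgeR). Among all tested genes this log2FC ranked 732, which places it within the upper range of genes and well behind the receptor genes of the CSF2 system.

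Csf2ra, the alpha chain of the GM-CSF receptor (ENSRNOG00000049782, chr14:1462358-1467264), had 2.29, 3.0 and 2.43 CPM in the sham libraries, from 30 to 43 counts each. In the BCP libraries it had 13.5, 16.1 and 21.9 CPM, from 160 to 290 counts. The BCP values spread more widely than the sham values, with library 3 highest, and the groups did not overlap. The log2FC was 2.73 (SE 0.20, 95% confidence interval 2.32 to 3.15, adjusted p = 5.41e-09 in edgeR), rank 234 of all tested genes.

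Csf2rb, the common beta chain (ENSRNOG00000000187, chr7:119554354-119568776), had 11.3, 6.28 and 4.66 CPM in the sham libraries. The BCP libraries had 63.7, 91.6 and 88.0 CPM. Sham library 1 was the highest of its group and BCP library 1 the lowest of its group, and the gap between the groups was far wider than either spread. The log2FC was 3.47 (SE 0.36, 95% confidence interval 2.49 to 4.45), rank 137 of all tested genes and the highest of the 6 genes. Its adjusted p in edgeR was 0.00335, higher than those of Csf2ra and Csf3r.

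Csf3r, the receptor gene of G-CSF (ENSRNOG00000008759, chr5:144031402-144051600), had 9.90, 9.14 and 7.97 CPM in the sham libraries. In the BCP libraries it had 23.8, 29.4 and 31.8 CPM. The groups were again apart, with a narrow sham range. The log2FC was 1.66 (SE 0.12, 95% confidence interval 1.40 to 1.92, adjusted p = 3.42e-09 in edgeR), and its interval overlapped that of Csf1r and lay below that of Csf2ra.

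Levels of different genes were compared per transcript length, with the FPKM values (fragments per kilobase of transcript, scaled to the depth of the library) calculated by the authors. Csf1r had the highest level in sham-operated rats, with 25.5 ± 3.77 FPKM (SD, n = 3), followed by Csf1 with 14.0 ± 0.978 and Il34 with 4.26 ± 0.239. The remaining receptor genes were lower, with 2.19 ± 1.01 FPKM for Csf2rb, 2.17 ± 0.230 for Csf3r and 1.58 ± 0.237 for Csf2ra. In this order the ranges of neighbours overlapped for Csf2rb and Csf3r and for no other pair of neighbours.

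The order differed in BCP rats. Csf1r remained first with 71.0 ± 9.08 FPKM, and Csf2rb, which ranked behind Il34 in the sham group, came next with 24.7 ± 4.78, ahead of Csf1 with 21.1 ± 1.88, although the ranges of these last 2 genes overlapped. Csf2ra followed with 10.8 ± 2.80 FPKM, Csf3r with 7.03 ± 1.07 and Il34, now last, with 3.96 ± 0.610. The remaining neighbours in this order did not overlap. In BCP rats the transcript of the common beta chain was thus at a level like that of Csf1, whereas in sham-operated rats Csf1 stood well above it.

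**Figure D2:**
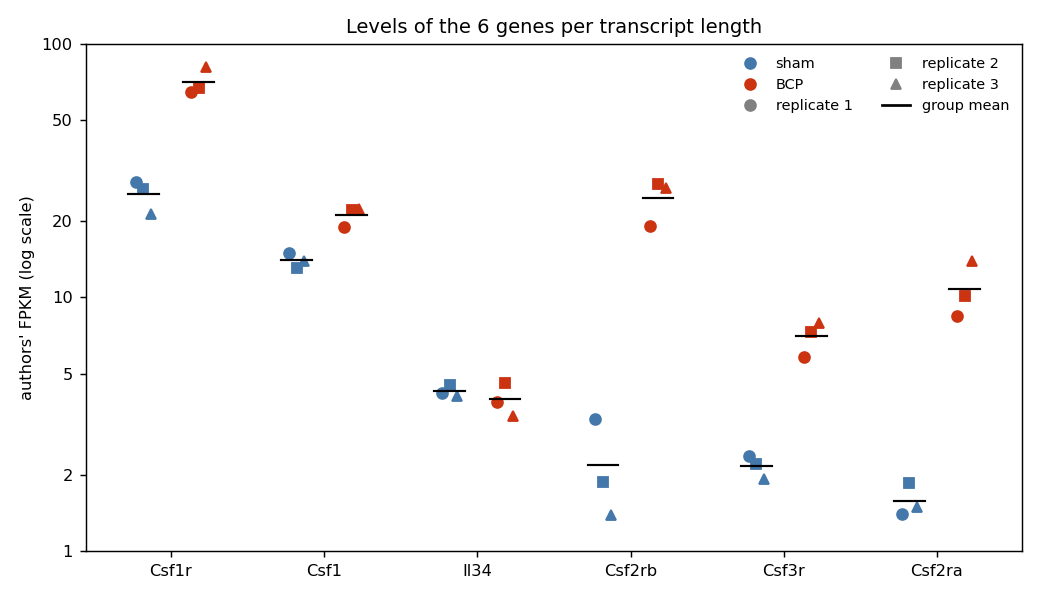
FPKM of the 6 genes as given by the authors, on a log scale, with a point for each library and a line at each group mean. Csf1r is highest in both groups, at means of 25.5 and 71.0, and Csf2rb passes from 2.19 in the sham group to 24.7 in the BCP group.

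The other ligands of the family were barely detected. Csf2, which encodes GM-CSF, had 0 counts in all libraries except 3 counts in BCP library 2, and Csf3, which encodes G-CSF, had 1 count in that library and 0 elsewhere. A count of 0 allows up to 3 counts at this depth, so a difference in these ligands was not detectable. Il3 had 0 counts throughout, and Il5 had 1 count in BCP library 3. These cytokines also signal through the common beta chain. Their alpha chain genes differed in level, since Il5ra had 1 count in sham library 2 and 2 in BCP library 3 whereas Il3ra was tested, with 8.76 ± 0.789 CPM in the sham and 10.5 ± 0.508 CPM in the BCP group (log2FC 0.26, adjusted p = 0.187 in edgeR). Of the alpha chain genes that were tested, Csf2ra rose and Il3ra did not pass the test.

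Both other binding partners of the CSF1R ligands that were examined were higher in BCP rats. Sdc1, which encodes the proteoglycan syndecan-1, a binding partner of IL34, rose from 2.25 ± 0.727 to 9.55 ± 1.38 CPM (log2FC 2.09, adjusted p = 3.97e-07 in edgeR). Ptprz1, a receptor phosphatase of glia and their precursors that also binds IL34, rose from 552 ± 34.4 to 616 ± 25.4 CPM (log2FC 0.16, adjusted p = 0.0188 in edgeR). The relatives of CSF1R among the class III receptor tyrosine kinases and their ligands were examined as a group. Of 7 tested genes of this group, receptors and ligands together, 0 were called at more than 2-fold by edgeR or by DESeq2, and 3 had an unadjusted p under 0.05. Kit, the receptor of stem cell factor, fell by 0.53 on the log2 scale (adjusted p = 0.00123 in edgeR) and was the single gene of the group past the adjusted p alone. Pdgfrb, the receptor gene of pericytes, had a log2FC of 0.16 (adjusted p = 0.134), and Flt3, a receptor of early blood and dendritic cells, had a log2FC of -0.11 (adjusted p = 0.344). The median of the group was 0.05.

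Ratios within a library do not depend on its depth, and 5 were compared between groups with an exact permutation test, two-sided, for which 0.1 is the smallest p that 3 against 3 libraries allow. The ratio of Csf1 to Il34 counts was 8.91, 7.16 and 8.52 in sham-operated rats, against 12.2, 11.96 and 16.3 in BCP rats, and the groups did not overlap. It was 1.63-fold higher in BCP rats (difference of the mean log2 ratio 0.71, exact permutation p = 0.1, 0.125 after Benjamini-Hochberg adjustment over the 5 ratios). The ratio of the receptor to its ligands, Csf1r to Csf1 plus Il34, was 1.80, 1.90 and 1.44 in the sham and 3.33, 2.93 and 3.63 in the BCP libraries. It was 1.93-fold higher in BCP rats, with groups that did not overlap (exact permutation p = 0.1, adjusted 0.125). With this number of libraries no ratio could reach an exact p under 0.05.

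The chains of the GM-CSF receptor kept no fixed ratio within the sham group. Csf2rb to Csf2ra was 4.93, 2.09 and 1.92 in sham-operated rats, against 4.71, 5.70 and 4.01 in BCP rats. Sham library 1 lay within the range of the BCP libraries and the other 2 sham libraries lay well below it. The difference of 0.81 in the mean log2 ratio gave an exact permutation p of 0.3 (adjusted 0.3). Without sham library 1 the difference was 1.25, with an exact permutation p of 0.1, again the smallest possible. A difference between the rises of the chains was thus not resolved by these libraries.

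**Figure D3:**
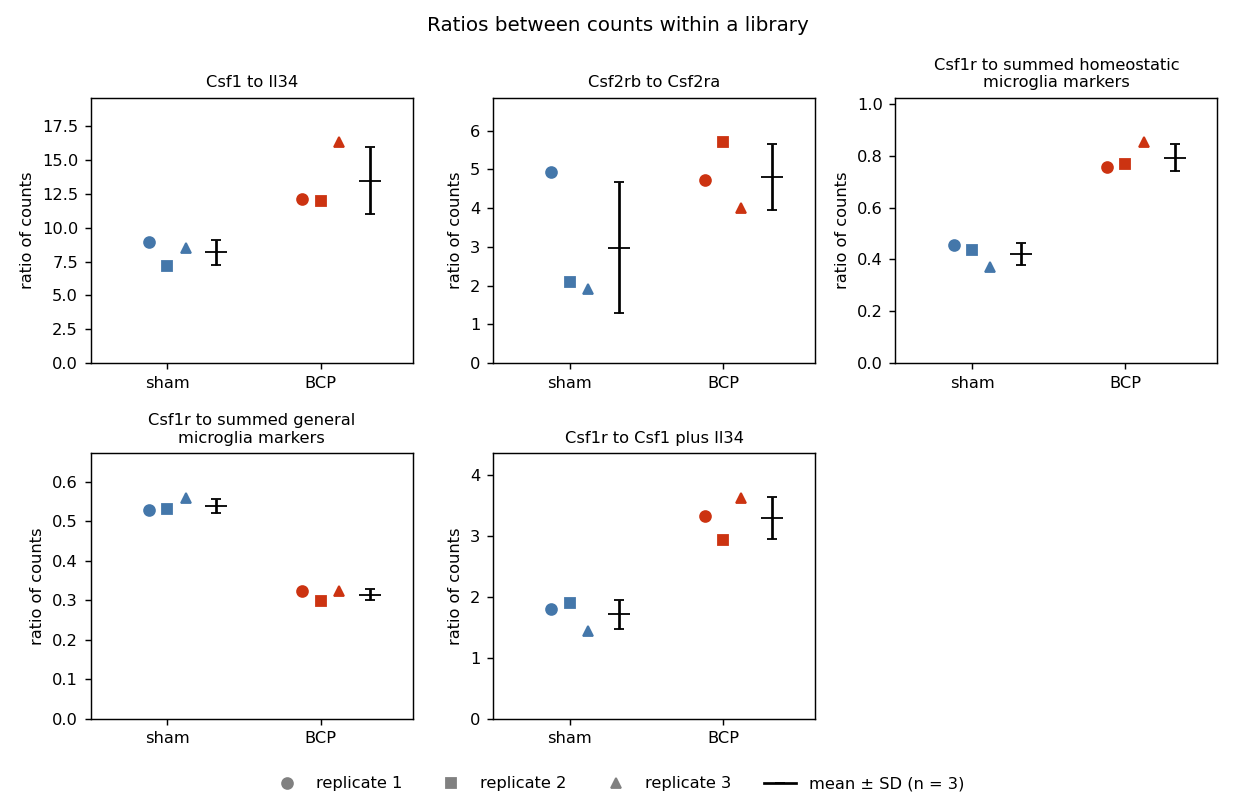
Ratios of counts within each library for Csf1 to Il34, Csf2rb to Csf2ra, Csf1r to the summed homeostatic and general microglia markers, and Csf1r to its ligands, with points for libraries and bars for the mean ± SD (n = 3). The groups overlap for Csf2rb to Csf2ra, where sham library 1 has a ratio of 4.93, and are apart in the other 4 panels.

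CSF1R, the GM-CSF receptor and CSF3R mark myeloid cells, and the lists of myeloid marker genes differed in how far they moved. All 10 genes of the list of general microglia and macrophage markers were called as more than 2-fold higher, with a median log2FC of 2.34, and their summed level was 177 to 252 CPM in the sham and 917 to 1137 CPM in the BCP libraries. Aif1, which encodes the microglial protein IBA1, had a log2FC of 2.40, Itgam, an integrin chain of the complement receptor, 1.84, and Cd68, a lysosomal protein of phagocytes, 3.66. Homeostatic microglia markers changed less. Of their 9 tested genes 2 were called at more than 2-fold, 5 were higher by adjusted p alone, and the median was 0.43. The summed level of that list was 267 to 293 CPM in the sham and 390.2 to 429 CPM in the BCP libraries, and Siglech was at 0 in all libraries.

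Within the homeostatic list Cx3cr1, the fractalkine receptor of microglia, had a log2FC of 1.42 and the purinergic receptor gene P2ry13 one of 1.14, whereas Tmem119, a membrane protein used to mark resident microglia, had one of 0.19 (adjusted p = 0.662 in edgeR). Csf1r, with a log2FC of 1.44, thus lay between the medians of the lists. The ratio of Csf1r to the summed homeostatic markers was 0.455, 0.436 and 0.371 in sham-operated rats, against 0.758, 0.768 and 0.853 in BCP rats. This ratio was 1.89-fold higher in BCP rats, with groups apart. Sall1 was the largest part of the summed homeostatic markers, with 136 ± 7.74 CPM in the sham and 183 ± 14.6 CPM in the BCP group. Against the summed general markers Csf1r had ratios of 0.528, 0.530 and 0.560 in sham-operated rats and lower ones of 0.322, 0.298 and 0.322 in BCP rats, 0.582 of the sham level, again with groups apart. Both comparisons gave an exact permutation p of 0.1 (adjusted 0.125), the smallest possible.

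Other cells that carry these receptors were looked for by their own markers, whose part in the result was not tested. Among monocyte and border macrophage markers 1 of 7 tested genes was called, Plac8, expressed in monocytes and other leukocytes, with a log2FC of 5.01. The median of that list was 0.12, and its summed level was 350.0 to 375 CPM in the sham and 536 to 601 CPM in the BCP libraries. Nearly all of that sum and of its rise lay in 3 genes. From sham to BCP mean these were Vcan (191 to 208 CPM), Fn1 (154 to 236 CPM) and Plac8 (3.12 to 98.9 CPM). Ccr2, the chemokine receptor of inflammatory monocytes, had no counts in sham-operated rats and 1 count in each BCP library. The markers of border macrophages Mrc1 (log2FC 0.17, adjusted p = 0.587 in edgeR), Cd163 (-0.27, adjusted p = 0.423) and Lyve1 (-0.52, adjusted p = 0.241) did not pass the test. Neutrophil markers, relevant to Csf3r, were low in both groups. Their summed level was 0.837 to 1.69 CPM in the sham and 3.78 to 9.21 CPM in the BCP libraries, and these ranges did not overlap. The 1 of 12 genes that passed the filter on low counts was S100a8, an alarmin of neutrophils. It had 1, 0 and 0 counts in the sham and 23, 15 and 10 in the BCP libraries and was called as higher (adjusted p = 6.20e-05 in edgeR). S100a8 passed the filter through the BCP libraries alone, so this call was nearly fixed by the filter. Among the others, Mmp8, a collagenase of neutrophils, had 2, 0 and 2 counts against 24, 18 and 5. Cxcr2, their chemokine receptor, had 0, 0 and 1 against 11, 4 and 6. Ltf was at 0 in all libraries, and Elane at 0 in the sham libraries. Prtn3 went the other way, with 4, 5 and 6 counts in the sham against 1, 2 and 4 in the BCP libraries. Mpo was mixed, with 1, 1 and 6 against 8, 2 and 1, and Cd177 had 1, 0 and 0 against 0, 0 and 2. Csf3r alone had 9.003 ± 0.976 and 28.4 ± 4.12 CPM in the same groups.

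T cell markers rose from a very low level, with 8 of 8 tested genes called as higher and a summed level of 6.08 to 6.77 CPM in the sham and 53.0 to 61.0 CPM in the BCP libraries. Most of the sham sum came from Cd4, with 5.09 ± 0.624 CPM in the sham and 21.9 ± 3.21 CPM in the BCP group. Cd3d, Cd8b and Cd5 had 0 counts in every sham library. The median log2FC of that list was 5.80, or 3.48 with the 5 genes at 3 or fewer counts in each sham library set against a floor of 3 counts per library. Those 5 genes passed the filter on low counts through the BCP libraries alone. So did Cd2, with 6, 0 and 1 counts in the sham and 44, 79 and 90 in the BCP libraries. The calls of all these genes as higher were nearly fixed by the filter. Dendritic cell markers had 2 tested genes, with 0 called by edgeR or DESeq2 and 0 at an unadjusted p under 0.05. Their list had summed levels of 45.2 to 50.03 CPM in the sham and 45.1 to 47.3 CPM in the BCP libraries. Most of that sum came from Flt3, with 40.6 ± 2.36 CPM in the sham and 37.7 ± 0.635 CPM in the BCP group. Among genes too low to test, Xcr1 had 0 counts in each sham library and 5, 7 and 5 in the BCP libraries. Batf3 had 0 against 8, 6 and 2, and Clec9a 1, 5 and 0 against 3, 3 and 10. Ccr7 had 2 counts in BCP library 3 alone, and Cd209a and Siglech were at 0 throughout. The share that each of these cell types has in the receptor transcripts was not tested.

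**Figure D4:**
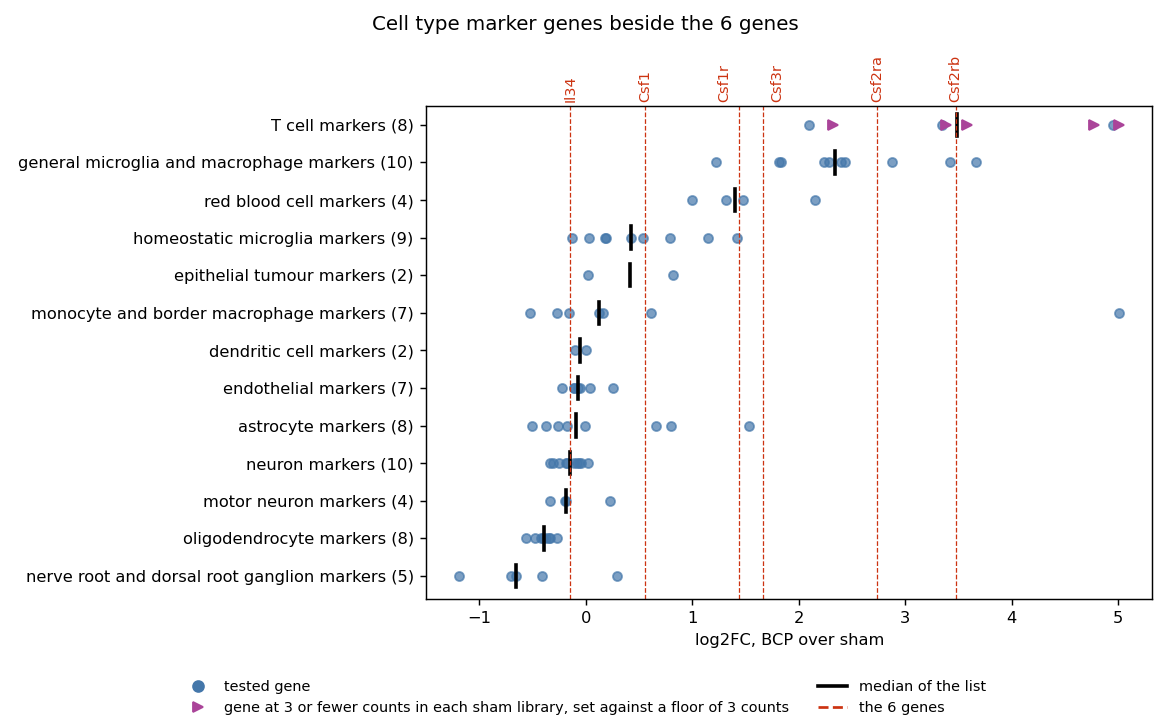
The log2FC (BCP over sham) of each tested marker gene, a line of genes for each cell type with the number tested in brackets, black bars for list medians and dashed lines for the 6 colony-stimulating factor and receptor genes. Neutrophil markers, with 1 tested gene, are left out. Genes at 3 or fewer counts in each sham library are set against a floor of 3 counts, so the T cell bar stands at 3.48. Csf1r at 1.44 and Csf3r at 1.66 lie between the medians of homeostatic (0.43) and general (2.34) microglia markers. Il34 at -0.14 lies near the medians of neuron (-0.15), motor neuron (-0.19), astrocyte (-0.09) and endothelial (-0.07) markers alike.

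Cells that can make the ligands were examined in the same way. Over all tested genes 15.8% were higher and 12.1% lower by adjusted p alone. Neuron markers had a median log2FC of -0.15, with 0 of 10 called at more than 2-fold by edgeR or DESeq2 and 5 lower by adjusted p alone, the same number as had an unadjusted p under 0.05. Astrocyte markers had a median of -0.09, with 0 of 8 called at more than 2-fold by edgeR or DESeq2, and 4 lower and 1 higher by adjusted p alone. The higher one was Gfap, the intermediate filament of astrocytes, with a log2FC of 0.80. Oligodendrocyte markers had a median of -0.39 and all 8 were lower by adjusted p alone. Endothelial markers had a median of -0.07 with 0 of 7 past either threshold or an unadjusted p under 0.05 in edgeR, while DESeq2 passed 1 by adjusted p alone. Their part in the values of Csf1 and Il34 was not tested.

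Of 10 tested transcription factors that act on these receptor genes in myeloid cells, 8 were called as more than 2-fold higher and 0 as lower, and 9 were higher by adjusted p alone. The median log2FC of the list was 1.65. Spi1, which encodes PU.1, rose from 6.66 ± 0.975 to 35.5 ± 3.23 CPM (log2FC 2.42, adjusted p = 6.91e-12 in edgeR), and Irf8, its partner in microglia and monocytes, rose from 13.6 ± 1.65 to 107 ± 12.8 CPM (log2FC 2.97). The C/EBP factor genes Cebpb and Cebpa had log2FC values of 1.90 and 1.496, Fli1, an ETS factor of blood and endothelial cells, 1.40 and Egr2 1.35. Tfec, a macrophage relative of MITF, had 0, 1 and 1 counts in the sham and 60, 87 and 64 in the BCP libraries. It passed the filter on low counts through the BCP libraries alone, so its call as higher, counted above, was nearly fixed by the filter. Runx1 rose within 2-fold (log2FC 0.52, adjusted p = 0.0182), and Ets2 did not pass the test (0.15, adjusted p = 0.214).

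Among the signaling partners of CSF1R, of 18 tested genes 7 were called as more than 2-fold higher and 0 as lower. Over all tested genes these shares were 6.35% and 0.107%. By adjusted p alone 10 were higher and 1 was lower, against 15.8% and 12.1% of all tested genes. The median log2FC was 0.19. Those called are chiefly genes of blood and microglial cells, namely the Src-family kinase gene Fgr (log2FC 3.07), the phospholipase gene Plcg2 (2.32), the adaptor gene Tyrobp (2.20), the PI3-kinase genes Pik3cg (1.91) and Pik3cd (1.03), the phosphatase gene Inpp5d (1.59) and the kinase gene Syk (1.34). The other 3 that were higher changed little, namely the ubiquitin ligase gene Cbl (log2FC 0.21), the adaptor gene Grb2 (0.18) and the kinase gene Src (0.16). The kinase gene Mapk3 was the lower one (log2FC -0.13, adjusted p = 0.0392 in edgeR). Trem2, a microglial receptor that signals through TYROBP, had a log2FC of 0.52 and did not pass the test (adjusted p = 0.140 in edgeR).

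Of the 17 tested partners of the CSF2 and CSF3 receptors, 7 were called as more than 2-fold higher and 0 as lower. Over all tested genes these shares were 6.35% and 0.107%. The median log2FC of the partners was 0.80. The 7 called genes included the phosphatase gene Ptpn6 (log2FC 3.001), the feedback inhibitor genes Socs3 (2.93) and Socs1 (2.88), the Src-family kinase gene Lyn (2.31), the kinase gene Pim1 (2.19) and the adaptor gene Shc1 (1.08). Socs1 had 6, 5 and 1 counts in the sham and 15, 42 and 28 in the BCP libraries. It passed the filter on low counts through the BCP libraries alone, so its call as higher, counted above, was nearly fixed by the filter. Jak2, the kinase bound to the common beta chain, rose by 0.69 on the log2 scale (adjusted p = 4.60e-06 in edgeR), and Stat3, the main factor downstream of CSF3R, rose by 0.80 (adjusted p = 2.37e-08). Stat5a and Stat5b, the factors downstream of GM-CSF, had log2FC values of 0.09 and 0.10 with adjusted p-values of 0.571 and 0.283. Many of these genes also serve interferon and other cytokine receptors.

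**Figure D5:**
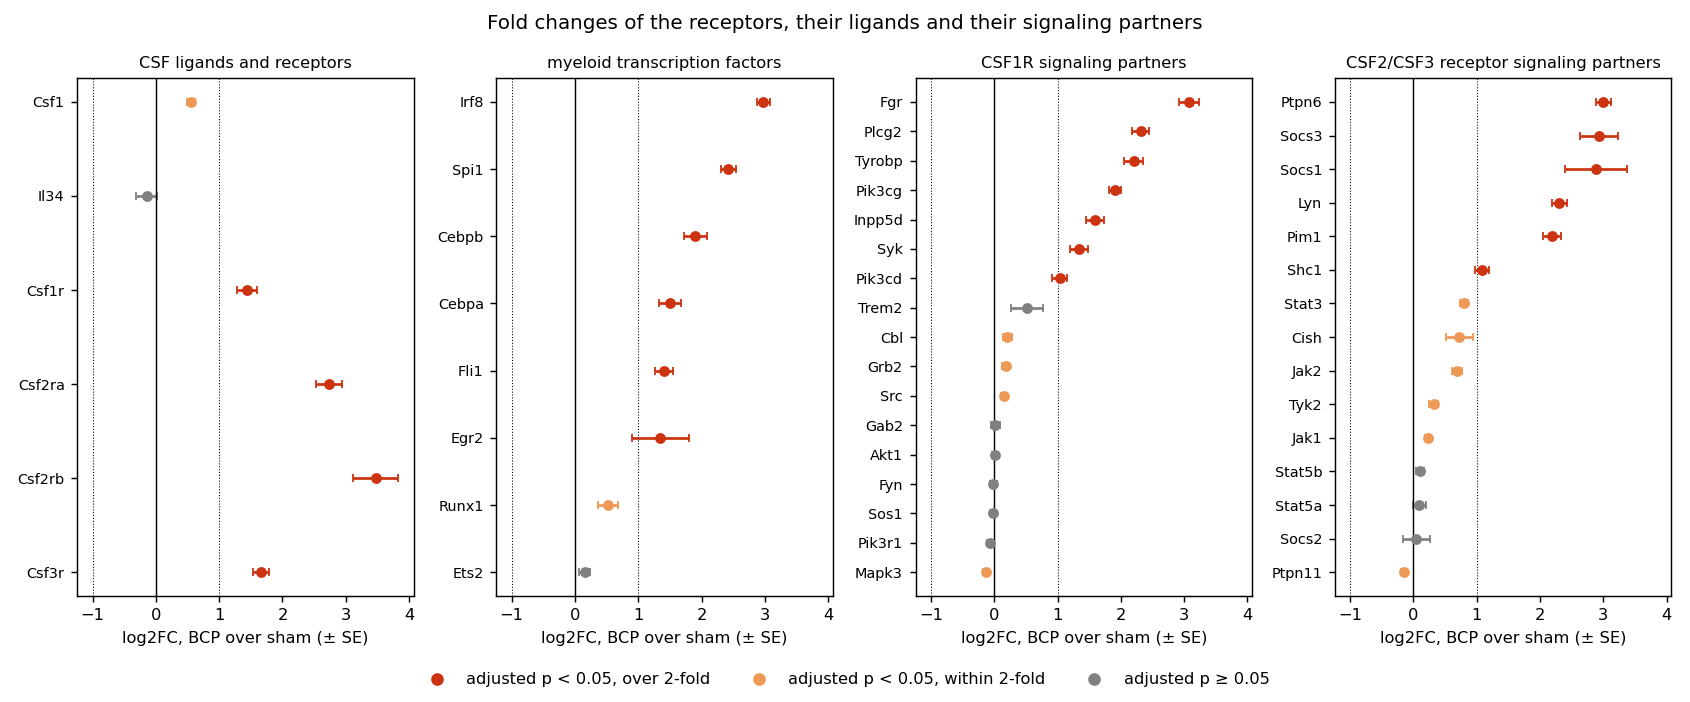
The log2FC (BCP over sham, ± SE) of the 6 genes and of the myeloid transcription factors and signaling partners reported here, coloured by whether they passed the adjusted p and the 2-fold threshold. Tfec, with 2 counts in all sham libraries together, is left out, and genes such as Akt1 and Sos1 lie at the zero line below the called genes.

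Genes whose pattern over the 6 libraries was most like that of each of the 6 were found by the root mean square difference in log2 CPM after centring each gene on its mean. For Csf1 they were Prkd3, a protein kinase D gene, Cr1l, a complement regulator gene, and Cflar, an inhibitor of caspase-8 (differences of 0.0228, 0.0284 and 0.0329). For Il34 they were Coq5 of ubiquinone synthesis, the nuclear receptor gene Rora and the mitochondrial ribosomal gene Mrps33 (0.0290 to 0.0420). For Csf1r they were the small GTPase gene Rab43, the NF-kappa-B subunit gene Nfkb2 and the adaptor gene Blnk (0.0738, 0.0776 and 0.0844). Csf1r and these neighbours had like fold changes, with log2FC values of 1.36, 1.47 and 1.45 for the 3 genes.

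Csf2ra was followed most closely by Myo1f, a myosin of leukocytes, by Ms4a6a and by Map4k1, a kinase of blood cells (0.125, 0.129 and 0.130). For Csf2rb the nearest gene was Ch25h, cholesterol 25-hydroxylase, at 0.0670, ahead of the T cell kinase gene Lck (0.153) and Tmem150b (0.182). For Csf3r they were the cathepsin gene Ctsh, the mitochondrial carrier gene Ucp2 and Fam46a (0.0741, 0.0774 and 0.0839). With 6 libraries in 2 separate groups these differences depend largely on the size of the change between groups.

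The lncRNA table listed 11 transcripts that overlapped one of the 6 genes or lay within 10 kb of it, and 6 were tested. The edgeR fit called 0 of them, 3 had an unadjusted p under 0.05, and DESeq2 also called 0, against 1.14% of the 12157 tested lncRNAs called as higher and 0.074% called as lower. By adjusted p alone edgeR also passed 0 of the 6, against 1.57% of the tested lncRNAs as higher and 0.395% as lower. The transcripts NONRATT013492.2 and NONRATT013493.2 lie within the span of Csf1r. NONRATT013493.2 had 12, 12 and 15 counts in the sham and 23, 27 and 30 in the BCP libraries, with a log2FC of 1.17 (adjusted p = 0.0795 in edgeR). It passed the threshold with at least 10 counts required in every library (log2FC 1.18, adjusted p = 0.0269), where fewer lncRNAs were tested. NONRATT013492.2 had 7, 23 and 14 counts in the sham and 18, 34 and 35 in the BCP libraries (log2FC 1.12, adjusted p = 0.305). The strand of the lncRNAs and the use of strand in counting were not given in the sources used here, so reads of Csf1r and of these transcripts cannot be told apart.

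Of the lncRNAs near Il34 and Csf2ra, the 2 most abundant did not pass the test. NONRATT014664.2, 657 bases from Il34, had a log2FC of -0.19 (adjusted p = 0.126 in edgeR), and NONRATT031996.1, 406 bases from Csf2ra, had one of -0.05 (adjusted p = 0.904). The coding neighbours of the 6 genes were looked at after their values were seen. Of 17 tested genes within 100 kb, 1 was called at more than 2-fold, Ncf4, a subunit of the phagocyte NADPH oxidase, 54929 bases from Csf2rb, with a log2FC of 3.28 (adjusted p = 4.67e-08). This share is close to the 6.35% of all tested genes called as higher. By adjusted p alone 6 of the 17 passed, namely Vac14, Ncf4 and Lsm10 as higher and Ahcyl1, Mtss1l and Tst as lower. Over all tested genes 15.8% were higher and 12.1% lower by this threshold, so the neighbours did not stand out. Tst, the closest tested neighbour of Csf2rb at 47548 bases, fell by 0.42 on the log2 scale (adjusted p = 0.000709 in edgeR). The closest neighbour of Csf1r, Hmgxb3 at 2095 bases, had a log2FC of -0.14 (adjusted p = 0.211). Pdgfrb, 8107 bases from Csf1r, had a log2FC of 0.16 and Crlf2, a cytokine receptor gene 815 bases from Csf2ra, had one of 0.20 (adjusted p = 0.458).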

How the data were processed

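RNA of 3 sham and 3 BCP samples was sequenced from strand-specific, ribosome-depleted libraries. Reads were filtered with Seqtk by the authors, who aligned them with HISAT2 2.0.4 to the Rnor_6.0 build and ran StringTie 1.3.0. They deposited unnormalized counts and FPKM values of each gene and each lncRNA transcript. The counter and its use of strand are not given in the sources used here. The totals on genes were 11779485 to 15004290 counts per library, and those on lncRNAs 1946315 to 2531114. PCR copies were not marked by molecular identifiers, so floors cover counting error only.

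Counts of genes and of lncRNAs were fitted separately with edgeR 4.0.16 in R 4.3.3 (filter by expression, TMM factors of 0.982 to 1.02 for genes, robust quasi-likelihood test on condition, Benjamini-Hochberg adjustment over all tested features). Calls required an adjusted p under 0.05, with or without an absolute log2 fold change over 1. CPM were computed from the counts with TMM. A further 23 lists of marker and pathway genes, 199 symbols of which 6 were absent and 154 were tested, were described by counts and medians. Grb2 had more than 1 entry and the one with more counts was used. The genes and lists were chosen with earlier results of these data known. Named were all 6 genes, list genes past the thresholds or defining a cell type, the 3 genes most like each of the 6, and lncRNAs within 10 kb. Some list genes, which the counts and medians include, are not reported here. Other list genes were named after their values were seen. DESeq2 1.42.0 and limma 3.58.1 were alternatives, beside other filters, scalings, FPKM, a replicate block and each library left out. Scripts were tested on simulated data. Figures were drawn with matplotlib 3.10.9. Promoters came from RefSeq (GRCr8) and matched 3 of the 6 genes by symbol. Same-numbered samples of the groups did not deviate together, with correlations of -0.105, 0.0439 and -0.0353 over genes, so the numbers were not used as pairs.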

Additional observations from a re-analysis of the deposited data

How the results depend on the processing

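Over 542 recomputations of 42 results under the alternatives, 524 kept their direction and side of the threshold or, for counts and medians, stayed close. The log2FC ranged from 0.50 to 0.63 for Csf1, -0.27 to -0.04 for Il34, 1.32 to 1.52 for Csf1r, 2.18 to 2.88 for Csf2ra, 3.04 to 3.89 for Csf2rb and 1.34 to 1.78 for Csf3r. The replicate numbers share only a number. With them as a block, Csf1r had a log2FC of 1.44 (adjusted p = 0.0554 in edgeR) and Csf2rb one of 3.48 (adjusted p = 0.0577), so 2 of the 6 genes in place of 4 were called at more than 2-fold, and 3 in place of 5 by adjusted p alone. Outside the block, the highest adjusted p was 0.0209 for Csf1r and 0.0239 for Csf2rb. The 16 genes of the whole table called as lower became 37 without a filter and 6 with at least 10 counts in every library, and 16 to 33 with a library left out (25 without sham library 2, 33 without BCP library 1). The list genes called as lower numbered 0, and 0 to 1 with a library left out (1 without BCP library 3). With at least 10 counts, 1 lncRNA near the 6 genes was called in place of 0. Medians moved to 1.99 for the myeloid transcription factors without sham library 1, to 6.25 (without sham library 2) and 2.10 (at least 10 counts) for T cell markers, and to -0.35 for oligodendrocyte markers with library size only. The sign turned for the monocyte and border macrophage median (-0.0069 without sham library 1, range with a library left out -0.0069 to 0.15), for NONRATT013490.2 (0.066 without BCP library 1, range -0.46 to 0.066), for NONRATT031996.1 (0.022 without BCP library 1, range -0.11 to 0.022), and for the axon injury median (-0.04 without sham library 3 and -0.01 without BCP library 1 or 3). The cause of these changes was not tested. The alternative scalings moved the median of all genes by at most 0.04. Depth limits Csf2, Csf3, Il3 and Il5 and 11 of the 12 neutrophil markers, which had too few counts to test.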

Other observations

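CSF1R and GM-CSF signaling can drive the division of microglia. Of 10 tested proliferation genes 8 were called as more than 2-fold higher and 0 as lower in BCP rats, against 6.35% and 0.107% of all tested genes. By adjusted p alone 9 were higher, against 15.8% of all tested genes. The median log2FC was 1.88, and their summed level was 55.6 to 90.3 CPM in the sham and 198 to 287 CPM in the BCP libraries. Mki67, the Ki-67 antigen, had 218, 266 and 83 counts in the sham and 834, 1672 and 1434 in the BCP libraries (log2FC 2.88, SE 0.49, adjusted p = 0.0174 in edgeR). Top2a, the topoisomerase of dividing cells, had a log2FC of 2.28 (adjusted p = 0.0307) and Birc5, survivin, one of 2.65 (adjusted p = 4.25e-05). Ube2c had 10, 6 and 1 counts in the sham and 12, 34 and 38 in the BCP libraries. It passed the filter on low counts mainly through the BCP libraries, so its call as higher, counted above, depended in part on the filter. The 2 genes not called at more than 2-fold were the replication clamp gene Pcna, which rose by 0.50 on the log2 scale (adjusted p = 0.00126), and the mitotic kinase gene Aurkb (0.86, adjusted p = 0.116). Which cells held these transcripts was not tested, nor was any part of the receptors in their rise.

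Red blood cell markers also moved with the groups, with 3 of 4 tested genes called as higher, a median log2FC of 1.40 and a summed level of 173 to 180.2 CPM in the sham and 301 to 464 CPM in the BCP libraries. Their part in the values of the colony-stimulating factor receptors was not tested. Epithelial tumour markers were low in both groups, at 4.34 to 5.72 CPM in the sham and 4.78 to 7.19 CPM in the BCP libraries, with 2 genes tested, 0 called by edgeR or DESeq2 and 0 at an unadjusted p under 0.05. Nerve root and dorsal root ganglion markers had a median log2FC of -0.66 over 5 tested genes, motor neuron markers one of -0.19 over 4, and axon injury genes one of 0.05 over 5 (-0.04 to 0.13 with a library left out), with 0 genes called at more than 2-fold in each list by edgeR or DESeq2 and 2 in each at an unadjusted p under 0.05.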
